A study of Mus musculus with 10 samples.

Results

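The hydroxysteroid dehydrogenases named Hsd17b are oxidoreductases that convert the alcohol and ketone forms of sex steroids into each other, and several of them act mainly on fatty acyl chains, sterols or other lipids. Hsd17b2, Hsd17b4, Hsd17b6, Hsd17b7, Hsd17b10, Hsd17b11, Hsd17b12 and Hsd17b13 are described here, 8 of the 55401 genes in the count files. They were listed by gene name, and the family was chosen by a measured value, the higher Hsd17b6 count in the knockout in these same libraries. The genotype differences of the members are therefore a description, without tests.

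Livers of 5 wild-type (WT) mice and 5 Thrb-KO mice, here called Thrb hep-/-, were profiled by mRNA sequencing with 1 library per mouse. Both groups were C57Bl6/J mice on standard chow with no treatment. The knockout mice carry loxP-flanked Thrb, the gene of thyroid hormone receptor beta, and an Afp-Cre transgene, whose alpha-fetoprotein promoter is active in the hepatocyte lineage. Thrb was not measured by cell type here. Sex, age and time of collection of these mice were not given in the sources used here.

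In the liver, oxidative members of the family inactivate estradiol and testosterone and regenerate androgens from their reduced metabolites. Other members carry out a step of peroxisomal fatty acid oxidation, of acyl-chain elongation or of cholesterol synthesis. One member works in mitochondria, and a pair sits on the surface of lipid droplets.

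Total counts were between 26477195 and 28590704 per library, and 12234 genes reached 1 CPM, a count relative to the library's total, in 5 or more libraries. Thrb itself had 33.3 ± 0.643 normalized CPM in WT and 26.7 ± 1.93 in Thrb hep-/- livers (SD, n = 5), with every knockout mouse below every WT mouse (log2 fold change -0.32 with a standard error of 0.067, adjusted p = 0.0359, edgeR, adjusted by Benjamini-Hochberg). Counts per gene do not tell which exons of Thrb the reads came from. Dio1, a deiodinase gene induced by thyroid hormone, fell by 3.03 on the log2 scale (standard error 0.18, adjusted p = 1.26e-05, edgeR). None of the 8 hepatocyte markers passed the threshold (Alb, Apoa1, Apob, Ttr, Tf, Cps1, Hnf4a and Asgr1), with summed levels between 110523 and 152294 CPM in WT and between 121274 and 135953 CPM in Thrb hep-/- livers.

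The livers of Thrb hep-/- mice 1, 4 and 5 stood apart from the other 7 by genes of other tissues, in lists drawn up after these values had been seen. The summed level of 8 adrenal cortex genes (Star, Cyp11a1, Cyp11b1, Cyp11b2, Cyp21a1, Hsd3b1, Nr5a1 and Mc2r) was between 36.4 and 219 CPM in these 3 livers, between 2.82 and 10.4 CPM in WT livers and between 4.84 and 5.02 CPM in the other 2 knockout livers. That of 8 adipocyte genes (Adipoq, Plin1, Cidea, Cfd, Retn, Fabp4, Lep and Ucp1) was between 59.7 and 112 CPM in the 3 livers, between 3.71 and 5.50 CPM in WT livers and between 5.35 and 8.29 CPM in the other 2. Cyp11b1, Hsd3b1, Nr5a1, Mc2r, Plin1, Lep and Ucp1 had 0 counts in all 7 other livers. Results are therefore also given without these 3 mice, which leaves 2 knockout mice.

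In whole tissue, fewer cells of a type and less RNA per cell cannot be told apart.

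All 8 members passed the filter on low counts. Hsd17b6 and Hsd17b11 were higher and Hsd17b2 was lower in Thrb hep-/- livers, with no overlap between the genotypes, while the other 5 members overlapped. The same 3 were past an adjusted p of 0.15, the threshold of the study, in the fit across all genes, where 4.08% of genes were past it (1.51% higher and 2.57% lower). Over all genes, 3.64% had genotypes that did not overlap (1.38% with the knockout higher and 2.26% lower). At an adjusted p of 0.05, which 1.35% of genes reached, Hsd17b6 and Hsd17b2 were past it. Without Thrb hep-/- mice 1, 4 and 5, Hsd17b6 (log2 fold change 2.07, standard error 0.38) was past 0.15, while Hsd17b2 (-0.66, 0.20) and Hsd17b11 (0.51, 0.15) were not. As the list was taken up for Hsd17b6, nothing is read from these counts.

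**Figure D1:**
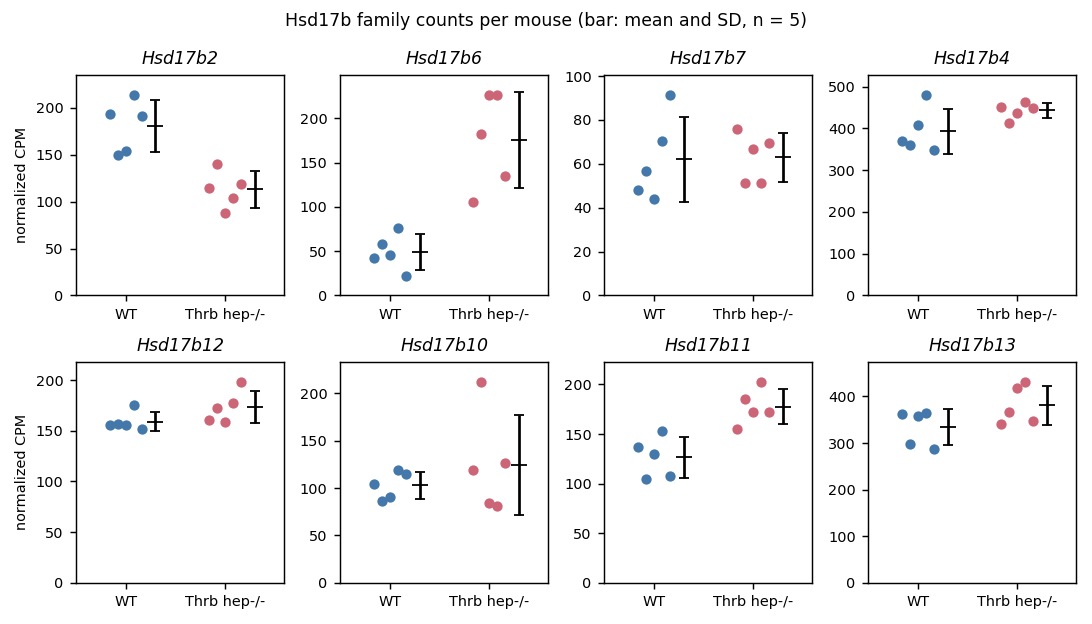
Normalized CPM (vertical axis, from 0) of the 8 members in each of 5 WT and 5 Thrb hep-/- livers, with the mean and SD beside the points. Hsd17b6 spanned 22.4 to 76.5 CPM in WT and 105.5 to 226.8 CPM in Thrb hep-/- livers, and Hsd17b2 moved the other way.

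Hsd17b6 (ENSMUSG00000025396, chromosome 10 of GRCm38 from 127990936 to 128007611, minus strand) encodes a microsomal oxidase that returns androstanediol to the active androgen dihydrotestosterone and also accepts retinol. Its normalized CPM were 41.8, 57.8, 45.9, 76.5 and 22.4 in the 5 WT livers and 105.5, 182.6, 226.8, 226.0 and 134.9 in the 5 knockout livers, in the order of mouse number as in all such lists here. The lowest knockout liver was above the highest WT liver, and the spread was wide in both genotypes. The mean was 48.9 ± 20.03 in WT and 175 ± 54.3 in Thrb hep-/- livers (SD, n = 5), or 1.84 on the log2 scale (standard error 0.33). Of its 50-base windows, 13.5% also occur in transcripts of related genes of chromosome 10, among them Rdh9, Rdh18-ps, Rdh1 and Rdh7. Reads that map equally well to several places were not counted, so that its count is uncertain to that extent.

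The 250 bases before the first RefSeq start of Hsd17b6 are shown because this member changed most. They lie at chr10:128007612-128007861 of GRCm38.p6 and are written along the minus strand, with capitals for CCAAT in either orientation.
Hsd17b6: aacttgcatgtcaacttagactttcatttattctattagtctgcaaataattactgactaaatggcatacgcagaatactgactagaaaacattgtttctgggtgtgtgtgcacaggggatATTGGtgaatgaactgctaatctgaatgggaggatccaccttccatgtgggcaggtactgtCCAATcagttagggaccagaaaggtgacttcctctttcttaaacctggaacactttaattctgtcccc

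Neither this window nor that of the second Hsd17b6 start held AGGTCA, the half-site that thyroid hormone receptors and many other nuclear receptors bind, on either strand. AGGTCA occurred in 14.0% of 32851 such windows, and CCAAT in 33.8%. The DR4 element, a direct repeat of that half-site with a spacer, occurred in 0.0152% of windows, and each of its matches also holds the half-site. TATAAA, the core of the TATA box, occurred in 12.4% of windows. A sterol response element, searched as TCACNCCAC, occurred in 1.05% of windows. On both strands, none of the 7 windows of the 6 members with an entry held any of these 3. CCAAT was added to the search after the windows had been read. Hsd17b2 and Hsd17b4 had no entry.

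Hsd17b2 (ENSMUSG00000031844, chromosome 8 from 117701904 to 117759027, plus strand) encodes the enzyme that oxidizes estradiol and testosterone to their weaker ketone forms. The 5 WT livers had 194.0, 150.3, 154.1, 214.2 and 191.5 CPM, and the 5 knockout livers had 114.5, 140.6, 88.0, 103.8 and 119.3 CPM. Every knockout liver was below every WT liver, with means of 181 ± 27.6 and 113 ± 19.5 (SD, n = 5) and a log2 fold change of -0.68 (standard error 0.13). Per length, Hsd17b6 was below Hsd17b2 in 5 of 5 WT livers, at ratios between 0.143 and 0.470, and above it in 5 of 5 Thrb hep-/- livers, at ratios between 1.13 and 3.15. With the longest transcript in place of all exons as the length, it was above in 3 of 5 Thrb hep-/- livers.

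Hsd17b11 and Hsd17b13 encode lipid droplet proteins and are neighbours on chromosome 5, both on the minus strand and 12351 bases apart. Hsd17b11 (ENSMUSG00000029311, 103989762 to 104021919) had 137.3, 104.7, 129.8, 153.3 and 107.2 CPM in the 5 WT livers and 154.7, 185.8, 172.4, 202.5 and 172.2 CPM in the 5 knockout livers. The highest WT liver came close to the lowest knockout liver, but the genotypes did not overlap. The log2 fold change was 0.49 (standard error 0.11), and without WT mouse 2 or 5 it was 0.43 or 0.44 and no longer past the threshold.

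Hsd17b13 (ENSMUSG00000034528, 103955440 to 103977410) had 363.3, 298.0, 358.9, 365.5 and 286.7 CPM in the 5 WT livers and 340.3, 367.5, 418.4, 431.3 and 347.2 CPM in the 5 knockout livers. These ranges overlapped, and the log2 fold change was 0.19 (standard error 0.11). Over the mice, deviations of both genes from their genotype means went together with Pearson's r of 0.835 (n = 10, a description of libraries that share depth and scaling). The level of Hsd17b13 per length was between 3.61 and 4.31 times that of Hsd17b11 in WT livers and between 2.99 and 3.67 times in Thrb hep-/- livers.

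The windows before the starts of these neighbours are shown for comparison, both along the minus strand, at chr5:104021797-104022046 for Hsd17b11 and chr5:103977389-103977638 for Hsd17b13. Capitals mark CCAAT in the former and AGGTCA, read on the other strand, in the latter, where it lies 96 to 91 bases before the start.
Hsd17b11: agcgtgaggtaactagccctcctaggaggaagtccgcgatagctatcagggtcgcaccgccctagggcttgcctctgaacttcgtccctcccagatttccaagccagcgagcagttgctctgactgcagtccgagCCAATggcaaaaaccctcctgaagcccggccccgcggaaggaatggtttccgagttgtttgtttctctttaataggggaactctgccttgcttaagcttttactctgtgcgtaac
Hsd17b13: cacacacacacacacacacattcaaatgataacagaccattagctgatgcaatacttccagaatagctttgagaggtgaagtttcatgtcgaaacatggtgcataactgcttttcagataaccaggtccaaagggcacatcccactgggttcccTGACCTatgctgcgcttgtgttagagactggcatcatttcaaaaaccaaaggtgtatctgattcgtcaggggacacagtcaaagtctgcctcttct

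Hsd17b4 (ENSMUSG00000024507, chromosome 18 from 50128201 to 50196269, plus strand) encodes the peroxisomal bifunctional enzyme that hydrates and dehydrogenates branched and very long acyl chains and bile acid precursors. It had 369.1, 358.9, 408.5, 480.7 and 348.6 CPM in the 5 WT livers and 450.1, 413.0, 437.8, 463.2 and 449.6 CPM in the 5 knockout livers. WT mouse 4 was the highest of all, so the genotypes overlapped (log2 fold change 0.17, standard error 0.099).

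Hsd17b12 (ENSMUSG00000027195, chromosome 2 from 94032689 to 94157964, minus strand) encodes the ketoacyl reductase of fatty acid elongation. It had 156.0, 156.7, 155.3, 175.0 and 152.0 CPM in the 5 WT livers and 160.6, 172.8, 158.6, 177.7 and 198.2 CPM in the 5 knockout livers. The ranges overlapped through WT mouse 4 (log2 fold change 0.13, standard error 0.080).

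Hsd17b10 (ENSMUSG00000025260, chromosome X from 152001845 to 152004442, plus strand) encodes a mitochondrial dehydrogenase of isoleucine breakdown that is also a subunit of mitochondrial RNase P. It had 104.4, 86.0, 90.3, 119.0 and 114.9 CPM in the 5 WT livers and 119.2, 212.2, 84.0, 81.6 and 126.1 CPM in the 5 knockout livers. Thrb hep-/- mouse 2 stood far above the rest. Of the other 4 knockout livers, those of mice 3 and 4 lay below the WT range and those of mice 1 and 5 above it. The log2 fold change was 0.28 (standard error 0.24), and without Thrb hep-/- mouse 2 it was 0.0019 (standard error 0.15).

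Hsd17b7 (ENSMUSG00000026675, chromosome 1 from 169949535 to 169969241, minus strand) encodes the ketoreductase of cholesterol synthesis. It had 48.1, 56.7, 43.9, 70.3 and 91.5 CPM in the 5 WT livers and 76.0, 51.3, 66.7, 51.3 and 69.7 CPM in the 5 knockout livers. The lowest and the highest value were both from WT livers (log2 fold change 0.021, standard error 0.20).

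Its window, at chr1:169969206-169969455 along the minus strand, is shown because CCAAT occurs 3 times in it, each on the other strand and in capitals. This is not particular to Hsd17b7. In the window of the second Hsd17b6 start, not shown, CCAAT in either orientation began 232, 171 and 17 bases before the start.
Hsd17b7: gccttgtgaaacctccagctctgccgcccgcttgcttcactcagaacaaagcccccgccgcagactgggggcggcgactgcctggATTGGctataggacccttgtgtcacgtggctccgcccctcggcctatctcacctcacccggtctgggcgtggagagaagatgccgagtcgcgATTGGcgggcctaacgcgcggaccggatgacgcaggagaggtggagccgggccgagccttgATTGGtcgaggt

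Levels of different members were compared per length, as TPM (counts divided by exon length and scaled to a common total). In WT livers the order was Hsd17b13 (390 ± 44.0 TPM), Hsd17b4 (290 ± 37.7), Hsd17b2 (235 ± 25.0), Hsd17b10 (199 ± 20.9), Hsd17b12 (166 ± 9.19), Hsd17b11 (97.2 ± 13.5), Hsd17b6 (78.0 ± 30.9) and Hsd17b7 (30.5 ± 9.16; SD, n = 5). The ranges of all neighbours in this order overlapped over the mice except Hsd17b12 and Hsd17b11. Within single livers the order held in 5 of 5 from Hsd17b13 down to Hsd17b11. Hsd17b11 was above Hsd17b6 in 3 of 5 WT livers, and Hsd17b6 above Hsd17b7 in 4 of 5. In Thrb hep-/- livers Hsd17b6, at 284 ± 94.6 TPM, came after Hsd17b13 (451 ± 66.3) and Hsd17b4 (332 ± 31.4), and Hsd17b2, at 149 ± 18.8, came after Hsd17b12 (184 ± 17.8). These ranks are by mean, and Hsd17b6 was above Hsd17b10 (240 ± 86.0) in 2 of 5 of these livers. Hsd17b6 overlapped both Hsd17b4 above it and Hsd17b10 below it. With the longest transcript as the length Hsd17b10 (258 TPM) was above Hsd17b6 (243 TPM). Hsd17b7 stayed last, at 31.5 ± 6.22 TPM.

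As a share of the transcripts of all 8 members per length, Hsd17b6 was 5.18% ± 1.84 in WT and 15.5% ± 4.26 in Thrb hep-/- livers, and Hsd17b2 was 15.9% ± 1.67 and 8.29% ± 1.34 (SD, n = 5). The summed level was 1486 ± 121 TPM in WT and 1810 ± 129 TPM in Thrb hep-/- livers.

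**Figure D2:**
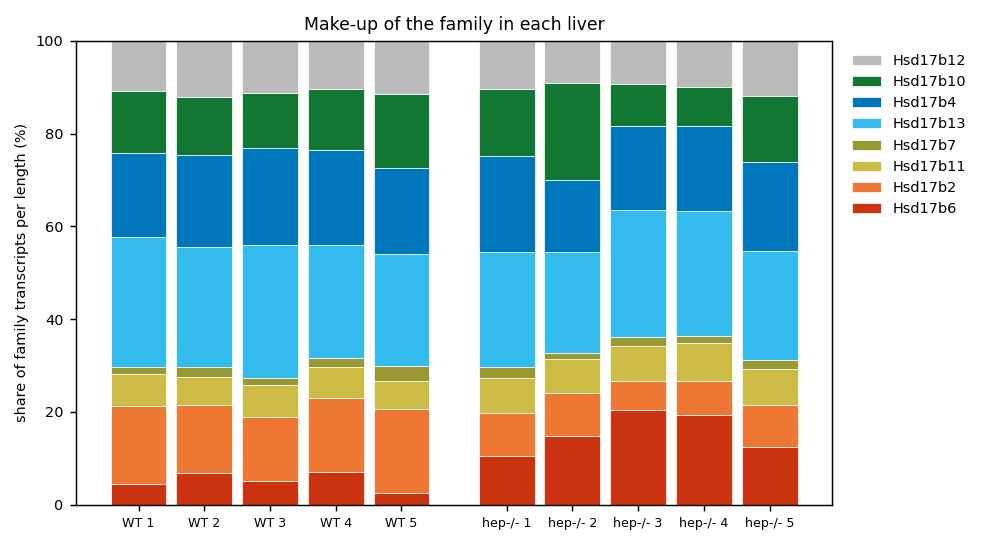
Share of each member in the family's transcripts per length (vertical axis, percent) in each liver, as stacked bars that sum to the whole. Hsd17b6, at the bottom, took 2.58% to 6.99% in WT livers and 10.5% to 20.3% in Thrb hep-/- livers.

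Of 8 other genes of the family or of the same reactions, Hsd17b1 (2 to 21 counts per library), Hsd17b3 (0 to 1), Hsd17b14 (0 to 3) and Hsd17b8 (0 to 2) were under the filter. Hsd17b8 shares 96.3% of its 50-base windows with Gm20427, so that its count is uncertain. Hsdl2, a peroxisomal relative, rose from 44.6 ± 7.10 to 68.3 ± 12.4 CPM (SD, n = 5), or 0.61 on the log2 scale (standard error 0.14, adjusted p = 0.0534, edgeR). Akr1c6, an aldo-keto reductase with the same steroid activity, had a log2 fold change of 0.13, Cbr4 of 0.090 and Hsdl1 of -0.13, and none of these 3 passed the threshold.

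The list of relatives of Hsd17b6 holds retinol dehydrogenase genes and Sdr9c7 on the same chromosome, and Bdh1, a hydroxybutyrate dehydrogenase gene of chromosome 16. Of 7 tested, Rdh16 rose, from 46.8 ± 7.92 to 73.9 ± 15.8 CPM (SD, n = 5), or 0.66 on the log2 scale (standard error 0.16, adjusted p = 0.0739, edgeR). The call of Rdh16 was lost in 3 of 21 alternatives. Sdr9c7 had a log2 fold change of 0.70 (adjusted p = 0.155, edgeR) and did not pass. Rdh7, the most abundant by count at 1152 ± 89.8 CPM in WT and 1276 ± 225 CPM in Thrb hep-/- livers (SD, n = 5), had a log2 fold change of 0.15 (adjusted p = 0.656, edgeR). Rdh9 (0.34), Bdh1 (0.20), Rdh16f2 (-0.026) and Rdh5 (-0.38) did not pass either. Rdh9 shares 92.3% of its 50-base windows with relatives and Rdh16 16.9%, so that both counts are uncertain.

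Across all pathway lists, 8 of 108 tested genes passed the threshold (7.41%), all of them higher in Thrb hep-/- livers, where 1.51% of all genes were higher. The median log2 fold change of the 108 genes was 0.062, against 0.00054 over all genes. With each mouse left out in turn, between 3 and 12 pathway genes passed, with 3 without WT mouse 2, 4 without WT mouse 5 and 4 without Thrb hep-/- mouse 3. Without Thrb hep-/- mice 1, 4 and 5, 4 pathway genes passed (Akr1c14, Akr1c19, G0s2 and Rdh16), and Hsdl2 (log2 fold change 0.64) and Ehhadh (0.78) did not.

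Of 18 steroid enzyme and receptor genes, Akr1c14, a reductase that makes androstanediol, rose from 298 ± 38.8 to 522 ± 166 CPM (SD, n = 5; log2 fold change 0.81, standard error 0.21, adjusted p = 0.0923, edgeR). This call was lost in 10 of 21 alternatives, and the genotypes overlapped. The other 17 did not pass. Hsd3b1, a steroid dehydrogenase of the adrenal cortex, was under the filter, with 44.4, 12.1 and 7.39 CPM in Thrb hep-/- mice 1, 4 and 5 and 0 in all other livers.

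Of 18 genes of peroxisomal oxidation, Ehhadh, the other bifunctional enzyme of the peroxisome, rose from 184 ± 27.3 to 317 ± 82.9 CPM (SD, n = 5; log2 fold change 0.78, standard error 0.17, adjusted p = 0.0434, edgeR), with no overlap between genotypes. None of the 10 elongation genes passed, at a median log2 fold change of 0.034, and 0 of them had an unadjusted p below 0.05 in edgeR. None of the 18 cholesterol synthesis genes passed, although 15 were lower and the median was -0.30, and 0 of them had an unadjusted p below 0.05. None of the 16 genes of mitochondrial RNase P and branched-chain amino acid breakdown passed, at a median of 0.091, and 2 had an unadjusted p below 0.05.

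Of 17 lipid droplet genes, 4 rose and 13 did not pass. Plin4, a droplet coat protein, rose from 3.47 ± 0.822 to 10.4 ± 5.95 CPM (SD, n = 5; log2 fold change 1.58, standard error 0.35, adjusted p = 0.0627, edgeR). Cidec, which drives droplet fusion, rose by 1.51 (standard error 0.34, adjusted p = 0.0652, edgeR). Fitm2, needed for droplet budding, rose by 0.44 (adjusted p = 0.0794, edgeR), and Pnpla2, a triglyceride lipase, by 0.42 (adjusted p = 0.0932, edgeR), with genotypes that overlapped. Of 21 alternatives, the call was lost in 7 for Pnpla2, 5 for Cidec and 4 each for Plin4 and Fitm2.

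Fat tissue also expresses Plin4 and Cidec. Among the knockout livers, Cidec was highest in the 3 with adipocyte genes, while Plin4 was high in mice 1 and 4 and not in mouse 5. Cidec was at 11.6, 17.8 and 12.8 CPM in Thrb hep-/- mice 1, 4 and 5 and at 4.87 and 6.004 CPM in mice 2 and 3. Plin4 was at 19.8, 12.8 and 6.79 CPM in the former and at 6.75 and 5.80 CPM in the latter. Plin1 and Cidea of the same list were under the filter, with 5.002, 6.02 and 6.97 CPM for Plin1 in mice 1, 4 and 5 and 0 elsewhere, and with 2.81, 2.48 and 9.37 CPM for Cidea against at most 0.210 elsewhere. Without these 3 mice the log2 fold change was 0.55 for Cidec, 0.86 for Plin4, 0.45 for Fitm2 and 0.39 for Pnpla2, and none passed. The part of the other tissues in these calls was not tested beyond this.

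**Figure D3:**
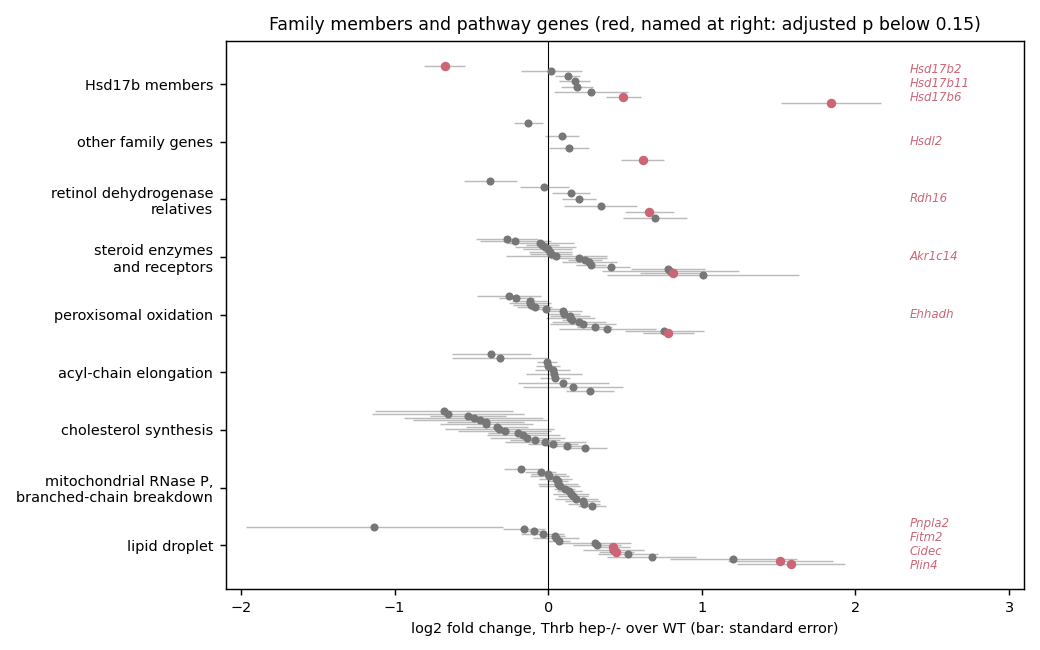
Log2 fold change of Thrb hep-/- over WT (horizontal axis) with its standard error for each member and each tested gene of the pathway lists, 1 row of points per list. Red points, named at the right, were past an adjusted p of 0.15, and for the members this is a description. Red points lie to the right of 0 in every pathway list that has any, and Hsd17b2, at -0.68, is the one red point to the left.

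Within genotypes, members were set against the mean log2 CPM of their pathway list as deviations from the genotype mean. These 6 relations were chosen after the values of Hsd17b7 and the cholesterol genes had been seen. How closely other genes follow these lists was not tested, so no relation is shown to be particular to a member. Hsd17b10 followed the mitochondrial list (Pearson's r = 0.891, exact permutation p = 0.00056, adjusted over 6 relations 0.0033, Spearman's rho = 0.915, exact permutation p = 0.0014, adjusted 0.0075, n = 10 mice). Without Thrb hep-/- mouse 2 and WT mouse 4, the mice farthest from the median of the list, r was 0.804. Hsd17b10 also went with Hsd17b2, which is outside that list (r = 0.867). Hsd17b7 followed the cholesterol synthesis list (r = 0.877, exact permutation p = 0.0038, adjusted 0.0115, rho = 0.903, exact permutation p = 0.0025, adjusted 0.0075, n = 10). Without WT mouse 5 and Thrb hep-/- mouse 1, r was 0.699 (exact permutation p = 0.057, n = 8), so that relation rests in part on those mice.

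Hsd17b4 and the peroxisomal list had r = 0.810 (exact permutation p = 0.029, adjusted 0.058, rho = 0.685, exact permutation p = 0.076, adjusted 0.151, n = 10), and r = 0.465 without WT mice 2 and 4. Hsd17b12 and elongation had r = -0.027 (exact permutation p = 0.933) and rho = -0.091 (p = 0.809 by exact permutation). Hsd17b11 and Hsd17b13 against the lipid droplet list had r = 0.106 (exact permutation p = 0.746) with rho = 0.152 (0.687), and r = 0.245 (exact permutation p = 0.527) with rho = 0.200 (0.594). None of these last 3 relations passed, with adjusted values between 0.791 and 0.933 for r and of 0.809 for rho. Over the 7 mice without Thrb hep-/- mice 1, 4 and 5, r was 0.877 for Hsd17b10, 0.853 for Hsd17b7 and 0.929 for Hsd17b4. For the last 3 relations it was -0.554 for Hsd17b12, 0.128 for Hsd17b11 and 0.461 for Hsd17b13. These 7 mice still hold WT mice 2 and 4, on which the relation of Hsd17b4 rests in part.

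**Figure D4:**
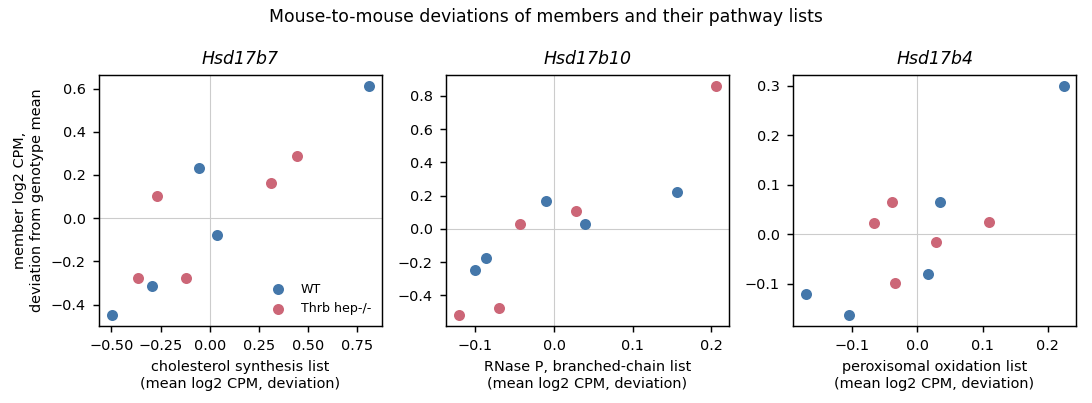
Deviation of a member's log2 CPM from its genotype mean (vertical axis) against that of the mean of its pathway list (horizontal axis), 1 point per mouse. Hsd17b7 and Hsd17b10 rise with their lists (r = 0.877 and 0.891), and Hsd17b4 does so mainly through WT mice 2 and 4.

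Between members, the highest within-genotype correlations were those of Hsd17b2 with Hsd17b10 (r = 0.867), Hsd17b11 with Hsd17b13 (0.835) and Hsd17b6 with Hsd17b13 (0.702), as descriptions over 10 mice. Over the 7 mice left without Thrb hep-/- mice 1, 4 and 5, they were 0.932, 0.803 and 0.572 in that order. Among 9203 other genes with a mean of at least 5 CPM, Ubr7 (0.953), Otulin (0.953), Ube2e3 (0.933), Mpp6 (0.932) and Nek7 (0.929) were most like Hsd17b6 within genotypes. Their log2 fold changes between genotypes were between 0.045 and 0.27, and none passed the threshold, so that they were like Hsd17b6 over mice and not in its difference between genotypes. Without Thrb hep-/- mice 1, 4 and 5 their r with Hsd17b6 was between 0.915 and 0.980 (n = 7 mice). As these genes were picked for the highest r over all 10 mice, high values in 7 of the same mice are no further support.

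Other gene groups moved with genotype as well. Of 21 tested acute-phase genes, 14 were lower in Thrb hep-/- livers and none higher, with a median log2 fold change of -1.13 and summed levels between 38676 and 88998 CPM in WT and between 25946 and 42983 CPM in Thrb hep-/- livers. The acute-phase score, their mean log2 CPM, was between 8.93 and 10.5 in WT and between 7.63 and 8.87 in Thrb hep-/- livers, with no overlap, so that this score and the genotype can hardly be separated. With the score as a covariate, the log2 fold change was 1.31 for Hsd17b6 (standard error 0.58), -0.44 for Hsd17b2 (0.24) and 0.18 for Hsd17b11 (0.19), and 0 of 8 members, 0 of 108 pathway genes and 8 of all genes were past the threshold.

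Of 8 Kupffer cell markers none passed, all had lower estimates, and their summed levels were between 119 and 438 CPM in WT and between 132 and 282 CPM in Thrb hep-/- livers. Of 8 stellate cell markers Des and Ecm1 rose, with sums between 138 and 191 CPM in WT and between 187 and 233 CPM in Thrb hep-/- livers. None of 8 endothelial markers (sums of 190 to 227 and 198 to 249 CPM) and none of 5 tested cholangiocyte markers (51.8 to 75.7 and 48.3 to 57.6 CPM) passed. Of 10 genes known to be higher in male liver, Cyp4a12b rose and C8a fell. Of 11 genes known to be higher in female liver, 2 were tested and neither passed, and the others were under the filter. Among those under the filter, Cyp3a41a and Cyp3a41b had 0 counts in all libraries. No marker of the 4 cell types other than hepatocytes was at 0 in all libraries. The part of these groups in the differences of the members was not tested.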

How the data were processed

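Reads were aligned to mm10 by the authors using HISAT2 2.2.1. The authors counted unique reads per gene over exons with HTSeq 0.9.1 in union mode without strand, and deposited raw counts per library. Reads of overlapping or near-identical genes were not counted. A table of the authors' own edgeR 3.36.0 comparison (log2 fold changes, F statistics and p-values) was not used.

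Counts were analysed with edgeR 4.0.16 (R 4.3.3): at least 1 CPM in at least 5 libraries, TMM scaling, robust quasi-likelihood F-test, Benjamini-Hochberg adjustment over 12234 genes, threshold 0.15, after the study. The fit was tested on simulated data. The standard error of a fold change was obtained from its size and F. CPM were normalized with TMM-scaled library sizes, and log2 CPM a prior count of 2. A count of 3 equals 0.105 to 0.113 CPM in these libraries. Counting error was not set against the spread between mice. Lengths and positions come from GENCODE M21 on GRCm38, where 260 of 55401 identifiers had no symbol, and windows before gene starts from RefSeq on GRCm38.p6, with an entry for 6 of 8 members.

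Genotypes were taken from the sample labels. The members, lists and tests were chosen with earlier results of these data known. Named are the 8 members, Thrb, Dio1, all tested genes of the 2 lists of relatives, up to 6 genes past the threshold of each other pathway list, and the 5 genes most like Hsd17b6. Correlations used exact permutation within genotypes, two-sided, and whether one held without 2 mice was read from its unadjusted p at 0.05, a rule chosen after the values were seen. Alternatives were DESeq2 1.42.0, limma-voom (limma 3.58.1), other scalings, filters and tests, a replicate block, an acute-phase covariate and leaving out each mouse. The adrenal cortex and adipocyte lists, and the fit without Thrb hep-/- mice 1, 4 and 5, were added after the values had been seen.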

Additional observations from a re-analysis of the deposited data

Results flagged for a closer look

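In 4 of 82 groups of 5 mice that were checked, 1 liver stood apart from the other 4 by Dixon's criterion, and chance gives about 4.1. Hsd17b12 was at 175 CPM in WT mouse 4, against 152 to 157 CPM in the other WT livers. Rdh16f2 was at 204 CPM in Thrb hep-/- mouse 2, against 119 to 129 CPM in the others. Bdh1 was at 207 CPM in Thrb hep-/- mouse 4, against 228 to 233 CPM. The total count of Thrb hep-/- mouse 2 was 27779196, against 28441288 to 28590704.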

How the results depend on the processing

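The 3 members past the threshold (Hsd17b2, Hsd17b6 and Hsd17b11) were the same under DESeq2, limma-voom, every other scaling, filter and edgeR test tried. As the family was chosen for the rise of Hsd17b6 in these same counts, this is a description and no support for that rise. Over 21 alternatives Hsd17b6 stayed between 1.31 and 2.07 and Hsd17b2 between -0.76 and -0.44. The acute-phase covariate left 0 members, 0 pathway genes and 8 genes in all past the threshold, took Thrb to -0.35, no longer past it, and reversed Hsd17b4 (-0.092), Hsd17b13 (-0.17), Rdh5 (0.33), Rdh16f2 (0.55), Otulin (-0.13), Ube2e3 (-0.020) and Mpp6 (-0.018). The score differs between genotypes, and the cause was not tested. Genes past the threshold, 499, were 885 under DESeq2, 880 under limma-voom and 165 at 0.05, and pathway genes, 8, were 18, 16 and 1, and 13 under the likelihood ratio test. With each mouse left out, genes past the threshold were between 222 and 665 (222 without Thrb hep-/- mouse 3, 227 without WT mouse 2, 239 without WT mouse 5), pathway genes between 3 and 12 and members between 2 and 3. Hsd17b7 then lay between -0.082 and 0.20, Rdh16f2 between -0.19 and 0.049 and Otulin between -0.019 and 0.093. The correlation of Hsd17b12 with elongation genes was 0.093 without the 2 farthest mice. Leaving out Thrb hep-/- mice 1, 4 and 5, an alternative chosen after seeing the data, left 1 member (Hsd17b6), 4 pathway genes and 173 genes past the threshold, with Thrb at -0.30 and no longer past it, and reversed Hsd17b7 (-0.064) and Rdh16f2 (0.22). Only 2 knockout mice remain in that fit. The labels state no pairing of the mice. Over all genes, the deviations of same-numbered mice from their genotype means had correlations from -0.20 to 0.0091. Whether the mice were paired cannot be told from this. With the replicate block 348 genes, the same 3 members and 8 pathway genes were past the threshold, with Rdh16 (adjusted p = 0.186, edgeR) and Akr1c14 (0.281) lost and Acaa1b and Plin5 gained.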
